A study of Mus musculus with 24 samples.

Results

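A pair of methods for removing ribosomal RNA was compared in CCE cells, with 4 RiboMinus libraries on one side and 1 Ribo-Zero library on the other. The members were chosen by their labels as all CCE libraries that were fragmented by RNA-hydrolysis and have a processed file. They number 5 of the 24 samples of the series, of which 16 have a processed file. CCE is a feeder-independent embryonic stem cell line of the 129/SvEv strain. In all 5 libraries the cells had been differentiated for 5 days, without LIF and with 0.266 µM retinoic acid. The comparison addresses which genes and RNA classes the depletion method brings in or leaves out.

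The RiboMinus libraries came from a pair of preparations, CCE1 and CCE2, which are technical replicates of each other, so that their spread is technical. Each was sequenced at Vienna-IMP and at Nijmegen. Values of the 4 libraries are given below in the order CCE1 Vienna-IMP, CCE2 Vienna-IMP, CCE1 Nijmegen and CCE2 Nijmegen. The Ribo-Zero library was made from RNA of another culture and sequenced at a further location, Vienna-CeMM. It also differed in read length (51 nt against 36 nt), in hydrolysis time (4 min against 3.5 min), in total RNA used (5 µg against 10 µg) and in the fragments selected. These were 150 to 600 bp for Ribo-Zero, 200 to 700 bp at Vienna-IMP and 300 bp at Nijmegen. The sequencing machine differed too, with an Illumina Genome Analyzer for RiboMinus and a HiSeq for Ribo-Zero. Less cDNA went into the library at Vienna-CeMM than at Vienna-IMP. Depletion method, culture, machine and these steps therefore cannot be told apart in CCE. Fetal heads (FH) of FVB/N mice at 14.5 dpc, with 4 hydrolysed RiboMinus libraries and 1 Ribo-Zero library of their own, were used to see which differences recur in another RNA. The FH RiboMinus libraries are given in the order FH1 and FH2 at Vienna-IMP, then FH1 and FH2 at Nijmegen, and FH2 had 2 rounds of depletion where FH1 and CCE had 1. The FH Ribo-Zero RNA was likewise a separate biological sample. The FH libraries share the difference in location, machine, read length and processing.

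The RiboMinus files held 1452794 to 2473448 uniquely mapped tags and the Ribo-Zero file 26345467 outside the mitochondrial chromosome (chrM). Over 7765 genes with at least 20 tags, the log2 ratio of CCE1 to CCE2 at Vienna-IMP went against that at Nijmegen (Pearson r = -0.64 across genes, which are not independent replicates). The intron shares also paired CCE1 Vienna-IMP (20.0% of tags) with CCE2 Nijmegen (21.8%) and CCE2 Vienna-IMP (15.8%) with CCE1 Nijmegen (16.0%). Whether the preparation numbers hold at both locations cannot be told from these values, and no result below pairs or pools libraries by them.

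Ribosomal RNA makes up most of the RNA of a cell, and random-primed libraries spend their tags on it unless it is removed. Both kits hybridise probes to ribosomal RNA and pull it out, so that RNAs without a polyA tail stay in the library. Such RNAs include small nucleolar RNAs (snoRNAs), which guide the modification of ribosomal RNA, small nuclear RNAs (snRNAs), which form the spliceosome, the RNAs of RNase P, vault and Ro particles, and the replication-dependent histone mRNAs, which end in a stem-loop. The probe sequences of the kits are not given in the sources used here.

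Tags were assigned to the GENCODE M1 gene set of mm9, each to 1 class. Small-RNA genes held 1.94% ± 0.50 (SD, n = 4) of the RiboMinus tags, and 1.53, 1.62, 2.62 and 1.97% in the single libraries, against 7.06% in Ribo-Zero. The Ribo-Zero share lay above all 4 libraries and was 3.64 times their mean. With each mapped position counted once, at matched depth, the difference in share fell from 5.12 to 0.461 percentage points, where short genes offer few positions to count. Protein-coding exons took 67.1% ± 2.80 of RiboMinus and 64.5% of Ribo-Zero tags, which is inside the RiboMinus range of 63.7 to 70.3%. Long non-coding exons took 0.646% ± 0.032 against 0.861%, and pseudogene exons 0.625% ± 0.093 against 0.804%, both above the range. Introns held 18.4% ± 2.96 of RiboMinus and 21.9% of Ribo-Zero tags, so that the Ribo-Zero share passed the highest RiboMinus library (21.8%) by less than the spread between the 4. The binomial interval (exact, 95%) of the Ribo-Zero share of small-RNA genes was 7.05 to 7.07% and covers counting error only.

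**Figure D1:**
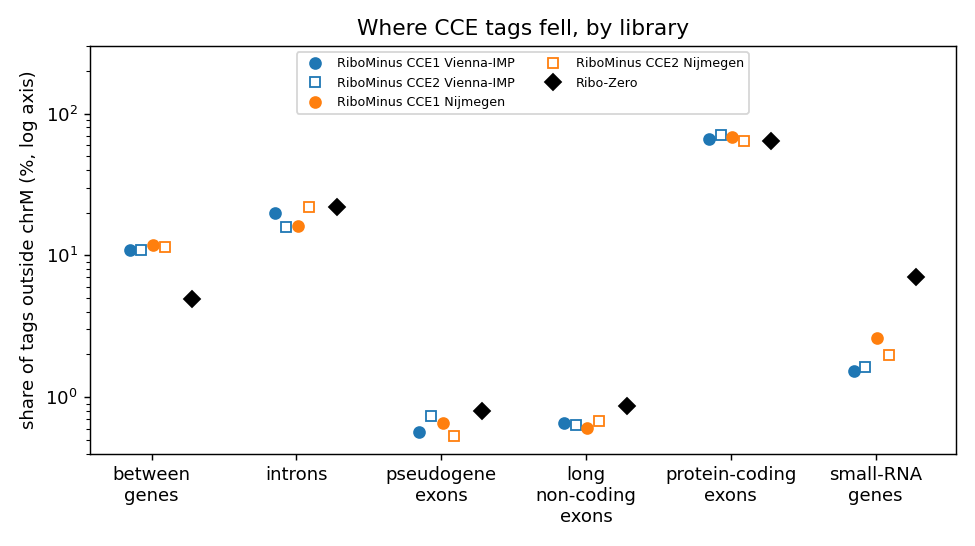
Share of the tags outside chrM (%, log axis) in 6 classes of the annotation for each of the 5 CCE libraries, with circles and squares for RiboMinus preparations and a diamond for Ribo-Zero. The diamond lies below the RiboMinus points between genes (4.89%) and above them in small-RNA genes (7.06%).

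Tags between genes made up 11.3% ± 0.50 of RiboMinus and 4.89% of Ribo-Zero tags, the lower value lying outside the range, while with each position counted once Ribo-Zero was 0.513 percentage points above the mean. Most of this gap came from 3 windows of 1 kb, picked as those with a mean of at least 0.5% of the RiboMinus tags. The window at chr11:108873001-108874000 alone held 3.68, 3.51, 4.95 and 4.16% of the RiboMinus tags and 0.298% of the Ribo-Zero tags. At chr8:15519001-15520000 the RiboMinus shares were 1.51 to 2.50% against 0.0353%, and at chr17:39983001-39984000, in a locus that resembles ribosomal RNA, 0.431 to 0.878% against 0.0669%. Without these windows, a step added after the data were seen, the shares between genes were 4.55% ± 0.53 in RiboMinus and 4.49% in Ribo-Zero. This difference was smaller than the spread between the 4 libraries. The windows were picked by RiboMinus alone, so leaving them out favours a smaller gap, and these shares are a description only. In FH the shares between genes were 11.3% ± 2.74 and 5.90%, and 5.91% ± 0.36 and 5.85% without the windows picked there by the same rule.

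The Ribo-Zero library also carried 2363248 chrM tags, 8.23% of its unique tags. The RiboMinus files hold none, because the authors removed mitochondrial tags from them, so the transcripts of chrM cannot be compared and were left out of every total.

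For single genes, tags were scaled to exon length and to the library total (RPKM), and the log2(RPKM + 1) value of Ribo-Zero was set against the range of the 4 RiboMinus libraries. A gene was called higher or lower where it lay at least 4-fold past the nearest of the 4 on that scale. With 1 library on one side an exact permutation test cannot go below a one-sided p of 0.2, so the calls carry no p-value.

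Of 5371 annotated small-RNA genes, 257 had enough tags, and among these Ribo-Zero was higher in 170 (66.1%) and lower in 3 (1.17%), and at any distance it was above the range in 223 (86.8%) and below it in 14 (5.45%). The minimum of 2 CPM was set on the mean of both methods, so that a gene with few RiboMinus tags could pass only through a high Ribo-Zero value and then had to lie above RiboMinus. These shares are therefore a description of the genes that passed, and without the minimum 272 of 1520 genes were higher and 6 lower. With each position counted once, 125 of the 170 kept the call. Among the 170 were 148 of 203 snoRNAs, all 15 snRNAs that passed (of 1423 annotated), 4 of 18 genes of the type misc_RNA, 2 of 20 miRNA genes and the 1 gene of type rRNA. Levels of small RNAs are given as tags scaled to the library total alone (CPM), because many of these genes are shorter than the fragments selected.

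The snRNAs as a group rose from 21.4, 21.3, 12.5 and 17.2 CPM in RiboMinus to 1159 CPM in Ribo-Zero, 54.1 times the highest library. U4, which pairs with U6 before the spliceosome is activated, had 0.404, 0, 0 and 0 CPM in the 4 RiboMinus libraries and 188 CPM in Ribo-Zero for the copy at chr5:115939468-115939608. With 1 tag in all of RiboMinus, from CCE1 Vienna-IMP, the ratio was 1387 with a counting interval of 249 to 54795. Uniquely mapped tags at this copy thus numbered 1 in RiboMinus and 4966 in Ribo-Zero. Tags with several places in the genome had been removed, so the level of U4 as a whole is not shown. Its first 30 bases show the copy meant, since the U4 family has several:
U4 start: agctttgcgcagtggcagtatcgtagccaa

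U1, which recognises the 5′ splice site, had no tag at chr3:89771921-89772085 in any RiboMinus library against 52.2 CPM in Ribo-Zero, at least 128-fold higher when 3 tags over the pooled RiboMinus libraries are taken as the floor. U6atac, a component of the minor spliceosome, likewise had no RiboMinus tag and 30.1 CPM, at least 73.9-fold higher. U5, the central snRNA of both catalytic steps, had 0.404, 0.688, 0 and 0 CPM against 159 CPM, and its log2 gap to the nearest library went from 7.63 to 8.26 without CCE2 Vienna-IMP. These genes belong to families with near copies, and only tags with 1 place in the genome were kept. Of the 36-mers of U4, U5, U1 and U6atac 53.2 to 87.3% occur at a single place, and of the 51-mers 71.6 to 100%. More tags can thus be lost at the 36 nt of RiboMinus than at the 51 nt of Ribo-Zero. The part of this in the folds was not tested. Of the spliceosomal list, the minor snRNAs U11, U4atac and U6atac were tested and all 3 were higher. U11 had 1.62, 0.688, 0 and 0 CPM against 103 CPM, and U4atac had 4.04, 7.57, 1.98 and 0.523 CPM against 150 CPM.

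The snoRNAs together had 3433, 3702, 2681 and 2070 CPM in RiboMinus and 21697 CPM in Ribo-Zero, 5.86 times the highest library, and none was called lower. SNORA4 (chr16:23111690-23111828) had 1.21, 1.38, 0 and 1.05 CPM against 298 CPM. Scarna8 (chr4:86232357-86232487), a guide RNA of the Cajal body type, had no RiboMinus tag against 22.4 CPM, at least 54.8-fold higher. Snord14c, a box C/D guide inside the body of the heat shock gene Hspa8, had none against 11.8 CPM, at least 29-fold higher, and is named here after its value was seen. No RiboMinus library came near the Ribo-Zero level in these guides. The ends that mark their families are shown, with the ACA box near the 3′ end of SNORA4, the ACA in the last bases of Scarna8 and the C box (TGATGA) near the 5′ end of Snord14c in capitals:
SNORA4 end: atggttcattactatattgtggcctACAtt
Scarna8 end: tcgtcatggacagatacggggcagACAatt
Snord14c start: tcgctgTGATGAtggattccaaaaccattc

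Sorted by these letters, 101 tested snoRNAs had ACA in their last 7 bases, 69 had TGATGA in their first 25 bases and 33 had neither. The group ending in ACA had 87 called higher and a median log2(RPKM + 1) difference of 5.68, with summed levels of 987, 664, 392 and 322 CPM in RiboMinus against 9850 CPM. The C box group had 38 called higher and a median of 4.07, with 1177, 1313, 1000 and 1003 CPM against 5457 CPM. The remaining 33 had 23 called higher and a median of 5.66. The groups also differ in length, with median lengths of 134 and 83 bases for the ACA and C box groups, and the letters are a description of the genes, not of a cause.

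The counts differed with the length of the gene. With miRNA genes left out, Ribo-Zero was higher in 36 of 64 genes of up to 90 bases, 22 of 24 of 90 to 120 bases, 95 of 109 of 120 to 150 bases, 14 of 18 of 150 to 250 bases and 1 of 22 longer ones. Genes of 120 to 150 bases summed to 1162, 752, 132 and 114 CPM in RiboMinus against 11338 CPM. Here the RiboMinus locations differed from each other, the mean at Vienna-IMP being 7.76 times that at Nijmegen. Genes of 90 to 120 bases summed to 389, 69.5, 29.6 and 41.8 CPM against 10537 CPM, so that CCE1 Vienna-IMP was the highest of the 4. Genes of over 250 bases summed to 8701, 10719, 13491 and 10413 CPM against 39491 CPM, 2.93 times the highest. The part of fragment selection and of read length in these differences was not tested. Among the 190 genes in which at least 90% of the 36-mers are single in the genome, 128 were higher and 1 was lower.

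**Figure D2:**
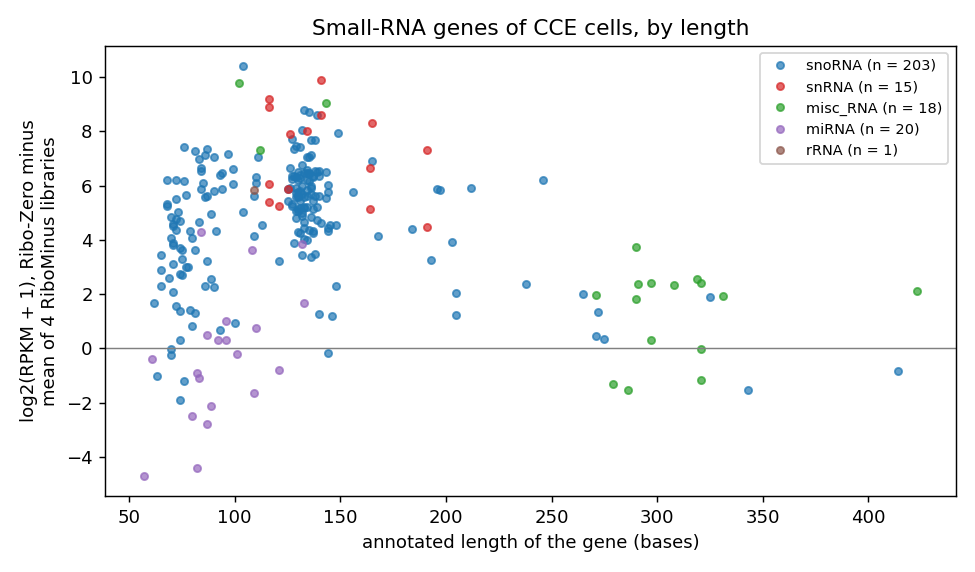
Difference between Ribo-Zero and the mean of the 4 RiboMinus libraries, in log2(RPKM + 1), for the 257 small-RNA genes tested, by annotated length in bases and coloured by gene type. All 15 snRNAs lie above 4, the genes of over 250 bases lie nearer to 0 and the miRNA genes lie on both sides of it.

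Several other small RNAs of protein particles, but not all, followed the same direction. The Y RNA gene at chr6:47731623-47731724, a component of Ro particles, had 151, 18.6, 0 and 10.5 CPM against 6507 CPM. A second Y RNA gene at chr6:47738068-47738179 had 187, 17.9, 1.32 and 6.27 CPM against 2112 CPM. The vault RNA gene had 15.4, 4.82, 0 and 0.523 CPM against 868 CPM. In these genes CCE1 Vienna-IMP was the highest of the RiboMinus libraries and still 11.3-fold or more below Ribo-Zero. A gene named RNaseP_nuc, for the RNA subunit of the enzyme that trims tRNA precursors, had 116, 163, 152 and 107 CPM against 1776 CPM. It was the only gene of over 250 bases called higher. Another tested gene of the same name lay above the range by 1.15 on the log2 scale and was not called. The copy of 7SK at chr9:78023110-78023440, an inhibitor of the elongation factor P-TEFb, had 1208, 2128, 3019 and 1927 CPM against 7417 CPM, above the range but under 4-fold. Of the structural RNA list, only the name 7SK is annotated, and none of its 5 tested copies was called. In CCE 3 of the 5 lay above the range. The others lay inside it, with log2 differences of -0.02 and -1.16. In FH 2 of 8 tested copies lay above the range and 4 below, with a median of -0.12. The Y RNA, vault and RNaseP_nuc genes are outside the rule for named genes and were picked with their values known.

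The miRNA genes went the other way in sum, with 4353, 4086, 12061 and 8414 CPM in RiboMinus against 663 CPM. This sum rests on 1 gene, AC113316.1 at chr5:147072579-147072660, which had 4087, 3807, 11785 and 8125 CPM against 296 CPM. It lies in an intron of Cdk8, and the intron of Cdk8 showed the same pattern, with 40.1, 41.3, 170 and 134 RPKM against 3.24 RPKM, a call it lost by position and by 5′ end. When each mapped position was counted once at matched depth, AC113316.1 lay inside the RiboMinus range, but a gene of 82 bases offers few positions to either method, so that this count says little. The other 2 genes called lower had few tags, and 5 genes were lower without CCE1 Vienna-IMP. The mmu-mir-2134-4 gene had 2.83, 6.88, 3.95 and 4.70 CPM against 0.114 CPM, and Mir1903 had 3.64, 4.13, 3.95 and 4.18 CPM against 0.645 CPM. Mir1903 lies wholly inside exons of another gene, whose tags cannot be told apart from its own.

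The small RNAs were also examined in FH, with the same minimum on the mean of both methods. Of the 170 genes higher in CCE, 133 were also tested in FH, and all 133 lay above the FH range, 124 of them by 4-fold. Of all small-RNA genes tested in FH, 78.9% lay above the range and 63.7% did so by 4-fold. U4 had 0, 0.457, 0 and 0 CPM in the FH RiboMinus libraries against 231 CPM. The RNaseP_nuc gene called in CCE was an exception in size, with 54.8 to 233 CPM in FH against 240 CPM.

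Of 9309 protein-coding genes tested, Ribo-Zero was 4-fold higher than all 4 libraries in 154 (1.65%) and 4-fold lower in 84 (0.902%). At any distance it was above the range in 3216 (34.5%) and below it in 3801 (40.8%), and the median log2 difference was -0.10. With each position counted once at matched depth, 95 of the 154 and 60 of the 84 kept the call. A gene can be called lower only if its lowest RiboMinus library has at least 3 RPKM, which follows from the pseudocount of 1. The minimum of 3 RPKM was set on the mean of both methods. A gene low in RiboMinus could therefore pass only through a high Ribo-Zero value and then had to lie above the range. Hmmr and Gltscr2, with RiboMinus means of 1.13 and 1.66 RPKM, are such genes, and the counts describe the genes that passed.

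Genes with the largest rise in Ribo-Zero included a pair of histone genes, several genes of the mitotic cell cycle and genes that carry snoRNAs. Hist4h4, an intronless gene for the core histone H4, had 32.4, 35.3, 95 and 35.2 RPKM in RiboMinus against 1867 RPKM, 19.7-fold over the highest. Hist1h1a, a linker histone, had 180, 217, 209 and 160 RPKM against 1771 RPKM, 8.18-fold over the highest, but with each position counted once its log2 gap of 1.53 was under 4-fold. The 4 RiboMinus libraries did not approach the Ribo-Zero value in either gene, and CCE1 Nijmegen was far above the other 3 RiboMinus libraries in Hist4h4, without which the log2 gap to the nearest library went from 4.28 to 5.69. Top2a, the topoisomerase of dividing cells, had 10.3, 8.80, 9.58 and 10.7 RPKM against 107 RPKM. Mki67, which coats mitotic chromosomes, had 4.78, 7.11, 6.73 and 5.86 RPKM against 66.0 RPKM. Hmmr, a spindle-associated hyaluronan receptor, had 0.653, 1.73, 1.30 and 0.844 RPKM against 20.9 RPKM. These cell cycle genes were 9.28- to 12.1-fold over the highest RiboMinus library. Eprs, an aminoacyl-tRNA synthetase, had 5.62, 4.69, 4.85 and 6.47 RPKM against 60.2 RPKM. Ppp1r12a, the targeting subunit of myosin phosphatase, had 3.72, 5.14, 3.97 and 2.55 RPKM against 52.0 RPKM. Gltscr2, a nucleolar protein gene, had 1.56, 2.21, 0.847 and 2.02 RPKM against 29.5 RPKM.

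Part of the rise in genes of the translation apparatus lay in or near snoRNA genes inside their annotated exons. Rps2, a protein of the small ribosomal subunit, had 19.4, 19.9, 16.5 and 10.6 RPKM against 192 RPKM, 9.65-fold over the highest. With small-RNA genes and 100 bases around them left out, a step added after the data were seen, Rps2 had 13.9 RPKM in Ribo-Zero and lay inside the RiboMinus range of 9.08 to 21.6 RPKM. Hspa8, the constitutive heat shock protein, went from 78.3 RPKM to 4.38 RPKM by the same step, below its RiboMinus range of 5.43 to 8.60 RPKM. These rises were thus not seen in the exon bases farther from the guides, and both genes also lost the call with each position counted once. Rpl5, Eif4a1 and Rpl10, named here for the same reason, also lost the call. Gltscr2 kept it, with 30.6 RPKM against 0.881 to 2.30 RPKM. Over all genes, 146 of the 154 higher and 84 of the 84 lower kept their call, with 146 higher and 85 lower in all. Genes whose body holds a snoRNA or snRNA gene made up 13.6% of those higher, none of those lower and 5.91% of all tested.

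Genes with the largest fall in Ribo-Zero were led by proteins of the contractile cytoskeleton. Acta2, smooth muscle actin, had 979, 1185, 949 and 811 RPKM in RiboMinus against 41.4 RPKM, 19.6-fold under the lowest. Cnn1, the actin-binding calponin, had 107, 153, 114 and 85.2 RPKM against 4.44 RPKM. Tagln, transgelin, had 1127, 1579, 1868 and 1300 RPKM against 83.5 RPKM. Actg2, the enteric smooth muscle actin, had 19.7, 29.1, 21.9 and 17.1 RPKM against 0.462 RPKM. All 4 RiboMinus libraries were at least 13.5 times the Ribo-Zero value in these genes. Ecm1, an extracellular matrix protein, had 511, 418, 356 and 385 RPKM against 30.0 RPKM. Lgals1, a galectin, had 1967, 3650, 4168 and 2303 RPKM against 186 RPKM, with a log2 gap of -1.46 and no call when each position was counted once. Atf6b, a membrane-bound transcription factor of the unfolded protein response, had 53.2, 62.4, 63.8 and 57.6 RPKM against 4.18 RPKM, and Scamp3, a membrane protein of endosomes, had 101, 72.2, 58.9 and 65.6 RPKM against 5.62 RPKM. Gprc5a, a receptor gene induced by retinoic acid, had 25.8 to 35.0 RPKM against 1.86 RPKM, and Hoxb9, a homeobox gene of the trunk, 16.4 to 23.8 RPKM against 0.944 RPKM.

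FH showed part of these differences. Of the 154 genes higher in CCE, 127 were tested in FH, and all 127 lay above the FH RiboMinus range, 38 of them by 4-fold. Of all genes tested in FH, 27.1% lay above the range and 0.663% did so by 4-fold. The minimum in FH was again set on the mean of both methods, so genes low in FH RiboMinus could only lie above. Gltscr2 passed this way, with 0.294 to 0.912 RPKM against 12.0 RPKM in FH. Of the 84 lower genes, 64 were tested in FH, of which 57 lay below the FH range and 3 by 4-fold, against 50.2% and 0.38% of all genes tested in FH. Across the 7828 genes tested in both, the log2 differences of CCE and FH had a Pearson r of 0.84, where the points share read length, location and base composition. Atf6b had 90.2, 70.3, 52.2 and 68.9 RPKM in FH against 7.22 RPKM, and Scamp3 27.3, 18.7, 12.1 and 15.9 RPKM against 2.91 RPKM. Hist4h4 rose in FH as well, from 4.54, 42.5, 34.1 and 3.01 RPKM to 839 RPKM. Acta2, however, had 57.6, 34.1, 26.0 and 47.9 RPKM against 22.5 RPKM in FH. Myl9, a myosin light chain of smooth muscle, had 226 to 374 RPKM against 24.9 RPKM in CCE, while its FH value of 29.1 RPKM lay inside the range of 28 to 53.1 RPKM. Krt19 went from 180 to 338 RPKM to 41.2 RPKM in CCE and was inside the range in FH, with 6.67 RPKM against 4.72 to 14.3 RPKM. Whether the 2 differences of such a gene differ from each other was not tested.

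**Figure D3:**
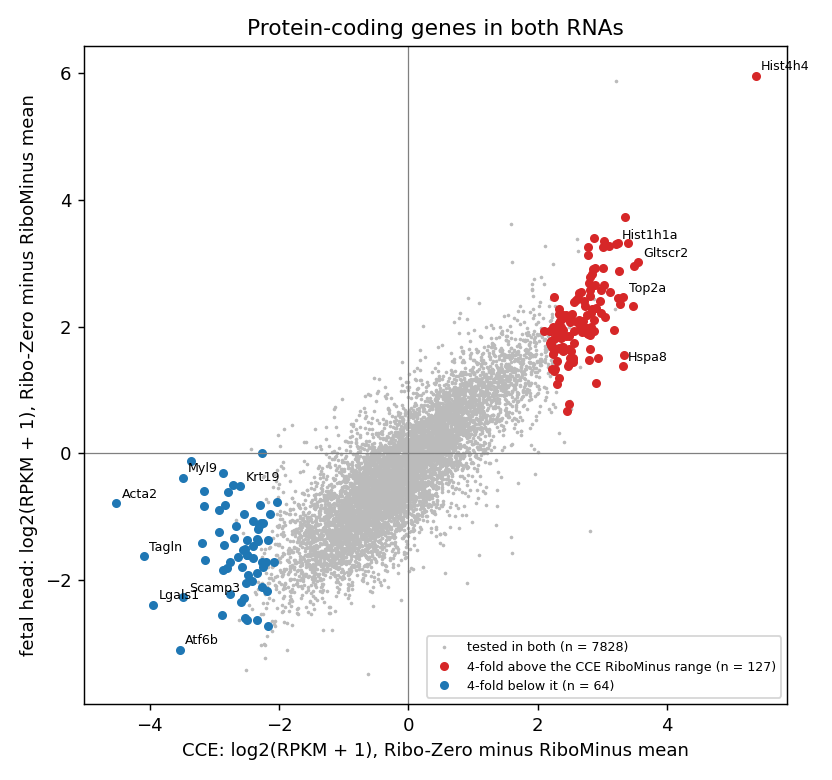
Difference between Ribo-Zero and the RiboMinus mean, in log2(RPKM + 1), for 7828 protein-coding genes in CCE (horizontal axis) and fetal head (vertical axis), with the genes called in CCE in red (127 higher) and blue (64 lower). All red points lie above 0 in fetal head, while the blue points include Atf6b at -3.09, Krt19 at -0.51 and Myl9 at -0.38, and 1 of the 64, Pik3r3, lies just above 0 at 0.012.

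Lists of genes that describe the state of the cells were set beside all genes, and no list was tested against them. The lists were chosen with earlier results of these data known. Of all genes in CCE, 1.65% were higher and 0.902% lower by 4-fold, and 34.5% lay above and 40.8% below the range. Of all genes in FH, 27.1% lay above and 50.2% below the range, with a median of -0.35. The minimum on the mean of both methods applies here too, so list members low enough in RiboMinus could only lie above the range. Of 13 tested pluripotency genes, 1 was higher by 4-fold, 12 lay above the range and none below, with a median log2 difference of 1.60 against -0.10 for all genes. Lin28a, an RNA-binding protein that blocks let-7 maturation, had 16.1, 20.0, 17.7 and 15.5 RPKM against 95.8 RPKM. Sox2, a partner of Oct4, had 12.2, 12.6, 10.2 and 8.93 RPKM against 46.5 RPKM, and Fgf4 had 1.73, 1.36, 1.09 and 1.03 RPKM against 8.96 RPKM. Fgf4 passed the minimum only through its Ribo-Zero value and could not have come out below the range. Every RiboMinus library was below Ribo-Zero in these genes. In FH, where the RiboMinus level of Sox2 was 17.3 to 24.5 RPKM, the Ribo-Zero value of 22.5 RPKM was inside the range. Of 3 pluripotency genes tested in FH none lay above the range and 2 lay below it, with a median of -1.57.

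Of 14 tested smooth muscle and mesenchyme genes, 5 were lower by 4-fold and none higher, 9 lay below the range and 2 above. The 14 had a median difference of -1.33 in CCE and -0.01 in FH. Their summed level was 3653 to 4153 RPKM in the CCE RiboMinus libraries and 630 RPKM in Ribo-Zero, while in FH it was 516 to 854 RPKM and 777 RPKM. Col1a2, a fibrillar collagen, went against the list, with 0.907 to 1.60 RPKM against 5.94 RPKM. In such bulk RNA, fewer cells of a type and less RNA per cell cannot be told apart.

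Of 14 retinoic acid response genes none was called, 10 lay below the range and 2 above, and the median was -0.86. Rec8, a meiotic cohesin, had 57.9 to 65.0 RPKM against 17.0 RPKM. Stra8, the gene by which retinoic acid starts meiosis, lay above the range with 2.03 to 4.75 RPKM against 18.5 RPKM. None of the 7 genes of the list of p53 and cell cycle inhibitors was called, 5 lay below the range, and the median was -1.93, while in FH 2 of 5 lay above and 2 below with a median of 0.18. Cdkn2a, a gene for inhibitors of CDK4 and of MDM2, had 101, 133, 135 and 86.7 RPKM against 22.6 RPKM, and Cdkn1a 163, 173, 138 and 119 RPKM against 35.4 RPKM. Of 13 cell cycle genes, 3 were higher (Top2a, Mki67 and Cenpf), 7 lay above the range and 1 below. Their median was 0.68 in CCE and -0.32 in FH, against -0.10 and -0.35 for all genes. The part of the other culture and that of the other method in these values cannot be told apart.

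Of 20 tested endoderm genes, 3 were higher and 1 lower, 10 lay above the range and 7 below, and the median was 0.36. Col4a1, a basement membrane collagen, had 36.2, 34.7, 33.5 and 32.0 RPKM against 204 RPKM, Lama1, a laminin chain, 8.75 to 14.8 RPKM against 70.4 RPKM, and Pdgfra, a growth factor receptor of primitive endoderm, 0.840 to 1.95 RPKM against 15.2 RPKM. The lower gene was Krt19, a keratin of simple epithelium. Of 10 hypoxia and glycolysis genes none was called, and 6 lay above and 2 below the range with a median of 0.75. In FH 2 of 7 lay above and 4 below with a median of -0.83. Of all genes in FH, 27.1% lay above and 50.2% below, with a median of -0.35. Hk2, a hexokinase, had 7.17 to 9.37 RPKM against 25.7 RPKM. Of 10 immediate early and stress genes 1 lay above and 7 below, median -1.06, and Atf4, a regulator of amino acid stress, had 112 to 146 RPKM against 27.4 RPKM. Of 8 cholesterol synthesis genes 2 lay above and 6 below, median -0.60. Of 4 tested neural genes 1 lay above and 2 below the range, median -0.45. Tubb3 was lower by 4-fold, with 10.6 to 21.4 RPKM against 1.71 RPKM, and Nes had 4.29 to 4.72 RPKM against 8.57 RPKM. No gene of the blood list reached the minimum level in CCE, where the list summed to 2.54 to 7.62 RPKM in RiboMinus and 3.01 RPKM in Ribo-Zero.

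Of 58 tested replication-dependent histone genes, 7 were higher by 4-fold, 39 lay above the range and none below it, and the median difference was 1.40 in CCE and 0.53 in FH. Hist1h1d, a linker histone, had 15.5 to 29.3 RPKM against 224 RPKM. The list summed to 3508, 4891, 8311 and 4739 RPKM against 15346 RPKM, so that Ribo-Zero was above every library, with CCE1 Nijmegen the highest of the 4. Many of these genes are near copies of one another, and the median share of single 36-mers in the list was 53.8%.

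Genes of translation lay on both sides of the range, as did all genes, of which 34.5% lay above and 40.8% below. Those of respiration were more often below it than above. Of 70 tested ribosomal protein genes 4 were higher, among them Rps2, Rpl10 and Rpl5, and 1 was lower (Rps26, 33.9 to 69.3 RPKM against 6.96 RPKM), with 22 above and 25 below the range and a median of -0.20. Rps2, Rpl10 and Rpl5 are among the genes that lost the call without the small RNAs in their exons. Of 76 tested nuclear genes of oxidative phosphorylation 1 was higher, 1 lower, 13 above and 45 below the range, with a median of -0.57 against -0.10 for all genes. In FH 13 of 74 lay above and 45 below, with a median of -0.83 against -0.35 for all genes. Ndufa2, a subunit of complex I, had 2.96 to 9.17 RPKM against 64.4 RPKM, and Cox6b2, the testis form of a cytochrome c oxidase subunit, 68.1 to 114 RPKM against 15.4 RPKM. Of 21 translation factors 3 were higher and none lower. Eif3a, the scaffold of initiation factor eIF3, had 11.0 to 14.5 RPKM against 77.2 RPKM.

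Differences followed base composition and length. Genes with up to 40% GC in their exons had a median log2 difference of 0.59, which went to 0.37, 0.03, -0.29, -0.55 and -0.45 in the bins up to 45, 50, 55, 60 and over 60% GC. In FH the medians went from 0.30 to -1.02 over the same bins. By exon length, the median was 0.58 in the 102 genes of up to 0.5 kb, -0.57 from there to 1 kb, and then -0.44, -0.23, 0.09 and 0.37 in the bins to 2, 4, 8 and over 8 kb. The genes poorest in GC and the longest genes thus had medians above 0 in both RNAs. The order by GC held within genes of similar length, for example 0.22, -0.24 and -0.57 for genes of 2 to 4 kb with up to 45, 45 to 55 and over 55% GC. Genes called higher had a median GC of 46.5% and a median exon length of 4250 bases, genes called lower 53.7% and 2125 bases, and all tested genes 50.4% and 3641 bases. Spearman's rho of the difference across genes was -0.35 with GC, 0.24 with exon length and -0.10 with the share of 36-mers single in the genome, the genes sharing the same 5 libraries.

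**Figure D4:**
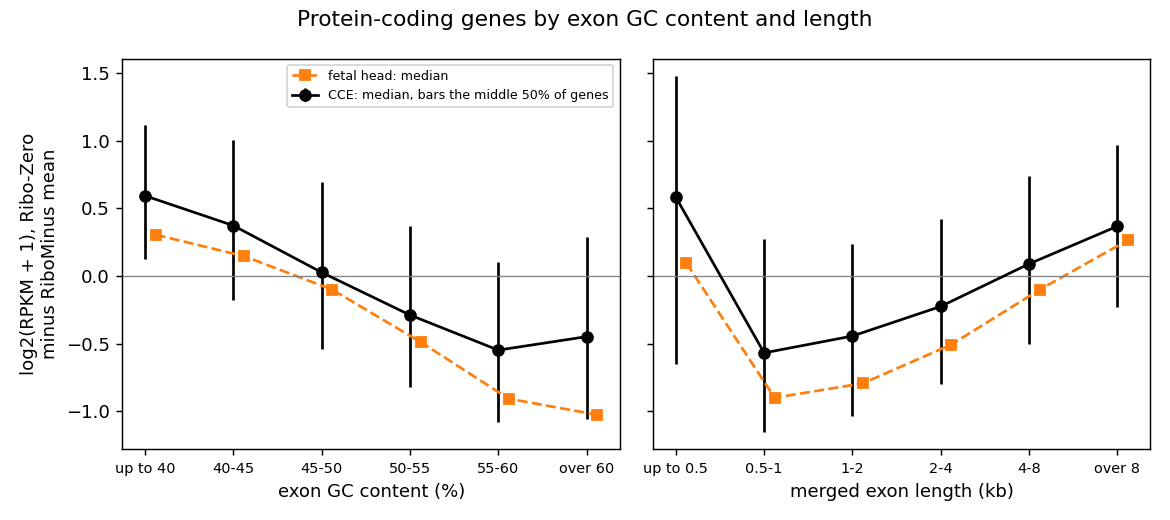
Median difference between Ribo-Zero and the RiboMinus mean, in log2(RPKM + 1), of protein-coding genes by exon GC content (left, %) and merged exon length (right, kb), for CCE (black, bars spanning the middle 50% of genes) and fetal head (orange). Both lines fall with GC up to 60%, from 0.59 to -0.55 in CCE and from 0.30 to -0.91 in fetal head, ending at -0.45 and -1.02, and rise with length from 0.5 kb on.

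Of 407 long non-coding genes tested, 6 (1.47%) were higher and 3 (0.737%) lower in Ribo-Zero. Without CCE2 Vienna-IMP 11 were higher. Gm16185 (chr9:96985745-96989029) had 0.630, 1.07, 0.205 and 0.652 RPKM against 7.74 RPKM. It reached the minimum, set on the mean of both methods, only through Ribo-Zero and so had to lie above the range. Gm15270 (chr10:24269247-24316914), which neighbours Ctgf, had 43.4, 27.3, 19.1 and 20.0 RPKM against 2.46 RPKM. Exons of another gene overlap 16.5% of its exon bases, and without strand the tags there cannot be told apart. Ctgf itself, a matricellular protein gene, had 63.8 to 113 RPKM against 10.6 RPKM. Gm11192 (chr11:78092240-78092568) had 10.7, 9.12, 4.36 and 6.92 RPKM against 0.251 RPKM, but lay inside the range when tags were placed by their 5′ end and lost the call, with a gap just under 4-fold, once the median of all genes was set to 0. Of 8 hosts of snoRNAs, 2 were higher by 4-fold, 4 lay above the range and 2 below, and the median was 0.80. Snhg1 had 54.6, 51.4, 25.7 and 21.8 RPKM against 461 RPKM, but its merged exon of 2947 bases spans the whole gene, so that tags of its guides are counted in it and their part was not tested. Snhg12 had 7.71 to 24.1 RPKM against 105 RPKM, while Snhg3, Snhg5, Rian and Meg3 lay inside the range or within 0.1 of it on the log2 scale. Snhg7 had 11.2 to 27.1 RPKM against 106 RPKM and Gas5 11.8 to 23.6 RPKM against 54.2 RPKM, both above the range by less than 4-fold. Exons of other genes overlap 20.9% of the exon bases of Snhg1, 20.5% of those of Snhg12 and 86.3% of those of Snhg3.

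Of 6 tested members of a list of known long non-coding RNAs none was called, 2 lay above the range and 3 below, and the median was -0.22. Malat1, retained in nuclear speckles, had 287, 230, 219 and 348 RPKM against 574 RPKM, and H19, the imprinted RNA, 49.6, 56.0, 60.2 and 39.7 RPKM against 193 RPKM. Both lay above all 4 libraries. Airn, the unspliced RNA that silences Igf2r, had 5.42, 3.65, 3.68 and 4.08 RPKM against 2.64 RPKM, below all 4. The annotated exons of Airn cover 3583 bases of a much longer locus, with 115 RiboMinus tags in all, so that most of the unspliced RNA was not counted.

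Introns of protein-coding genes were rarely past the range by 4-fold, with 13 of 4853 (0.268%) higher and 11 (0.227%) lower on the log2(RPKM + 0.1) scale. Without CCE1 Vienna-IMP 20 were higher, and without CCE1 Nijmegen 17 were lower. At any distance 40.4% lay above and 20.2% below it. Rbm15, an RNA-binding protein with a single long intron, had 2.69, 1.58, 1.85 and 2.01 intron RPKM against 14.0 RPKM. The intron of Cnga1, a photoreceptor channel gene, had 0.0599 to 0.227 RPKM against 1.85 RPKM, a log2 gap of 2.57, or 3.25 without CCE2 Nijmegen. Gpr162 and Gm10130 had no RiboMinus tag and 1.61 and 1.5 RPKM in Ribo-Zero, at least 6.70- and 5.31-fold higher by the floor of 3 tags over the pooled libraries. Gm5506 had 0.942, 0, 0 and 0 RPKM, 3 tags in all from CCE1 Vienna-IMP, against 13.1 RPKM, a ratio of 41.3 with a counting interval of 14.1 to 201. These introns hold few tags, and only 18.2% and 10.9% of the 36-mers in the exons of Gm10130 and Gm5506 are single in the genome. The minimum of 0.5 RPKM was set on the mean of both methods. Cnga1, Gpr162, Gm10130 and Gm5506 passed it only through their Ribo-Zero value and could not have come out lower. On the lower side, Ecm1 introns had 8.08, 10.7, 11.3 and 8.46 RPKM against 1.18 RPKM, beside the fall of its exons. Edn1, the precursor of endothelin, had 1.10 to 1.81 intron RPKM against 0.0520 RPKM, Dusp5, a phosphatase of ERK, 2.79 to 4.24 RPKM against 0.409 RPKM, and Tmem150a 7.70 to 10.2 RPKM against 1.15 RPKM. With a pseudocount of 1, Gpr162, Gm10130, Cnga1, Edn1 and Dusp5 lost the call, as did Gm5506 with each position counted once or by 5′ end. In Tmem150a the fall recurred in FH, with 3.61 to 7.68 RPKM against 1.11 RPKM.

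Some genes higher in Ribo-Zero shared a stretch of sequence with a locus on chromosome 17 that is known to resemble ribosomal RNA, a likeness not checked here. The stretch GAGAAGACG was picked after the values were seen, as the 9 bases of this locus, read in sense, whose holders had the highest median among stretches held by at least 100 genes, so its values are a description only. It occurs in the exons of 182 of the 8651 tested genes with little exon overlap (2.10%). Their median log2 difference was 0.88 in CCE and 0.79 in FH, against -0.09 and -0.30 for all 8651. In CCE 124 of the 182 lay above the range, 16 by 4-fold, and none was lower by 4-fold. The reverse complement CGTCTTCTC, which was not picked by its values, occurs in 114 genes, whose medians were -0.06 and -0.12. At least 100 genes held 3971 stretches in sense and 4008 in antisense, with highest medians of 0.88 and 0.58. With a lower minimum of genes the highest medians were 0.96 in sense and 0.95 in antisense. Then 27 of 6274 sense and 31 of 6290 antisense stretches had a median over 0.5, so the scan as a whole did not favour sense. Of the 147 higher genes in this set 16 (10.9%) held the stretch, and of the 82 lower ones none.

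The windows below show the 9 bases in capitals in 6 of the higher genes, each in the sense of its gene and named after their values were seen:
Mki67: tgcctatgaaGAGAAGACGtgtatcctttg
Cenpf: gctacagctgGAGAAGACGaaagtggaatt
Thumpd1: ggaagtgaggGAGAAGACGatgatgcagag
Anln: cgaccacaaaGAGAAGACGatcgagaaact
Mttp: taaggttcatGAGAAGACGgtgcgcacaac
Pa2g4: gattgatggaGAGAAGACGattatccagaa

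Cenpf, a kinetochore protein, had 2.20, 2.91, 1.97 and 3.17 RPKM against 25.8 RPKM. Anln, anillin of the cleavage furrow, had 3.65, 6.10, 5.83 and 3.95 RPKM against 39.3 RPKM, and Pa2g4, a growth regulator that binds ribosomes, 4.85, 6.25, 7.42 and 5.13 RPKM against 42.7 RPKM. In FH, Pa2g4 had 1.16 to 3.18 RPKM against 15.1 RPKM. The RiboMinus values of these genes lay within a narrow band in CCE, with Ribo-Zero far above it.

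Along the exons, the ratio of Ribo-Zero to the pooled RiboMinus tags was largest around the stretch, with a median log2 ratio of 1.43 in the first 250 bases after it and 0.92 to 1.05 from 750 bases on. In FH it was 1.64 in the 250 bases before the stretch. The CCE ratios come from the genes and libraries that picked the stretch, the FH ones from the same genes, and both are a description only.

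**Figure D5:**
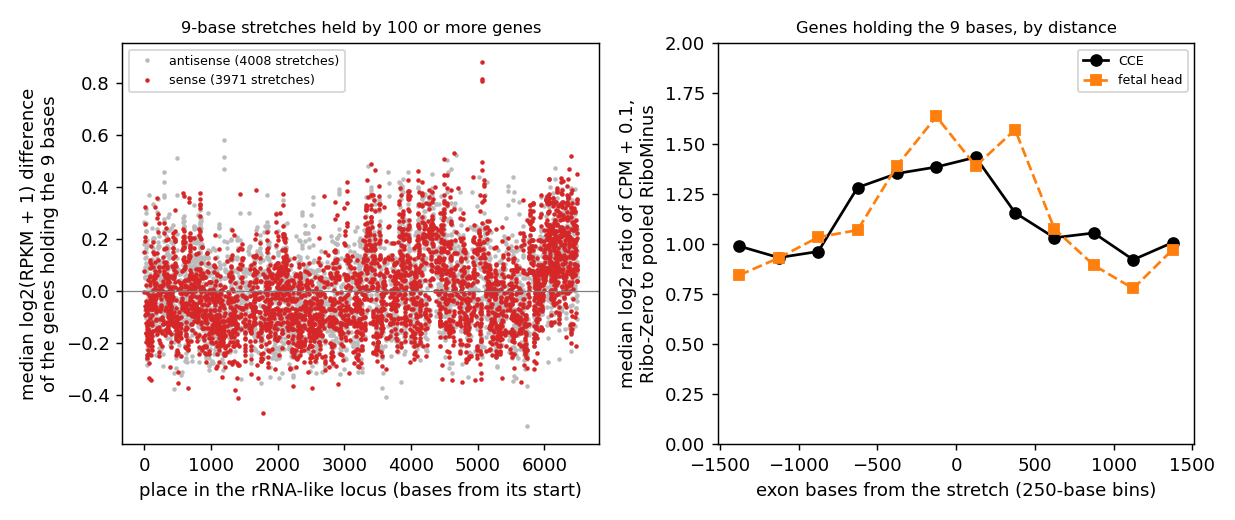
Left: median log2(RPKM + 1) difference in CCE of the protein-coding genes whose exons hold each 9-base stretch of the ribosomal RNA-like locus, for stretches held by at least 100 genes, by place in the locus in bases, in sense (red) and antisense (grey). Right: median log2 ratio of Ribo-Zero to pooled RiboMinus (CPM + 0.1) in 250-base bins around GAGAAGACG in the genes that hold it. The highest red point, the stretch that was picked out of 3971, is 0.88 against 0.58 for the highest of 4008 grey ones. The CCE ratio peaks at 1.43 beside the stretch.

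The tool limma assumes that a lone Ribo-Zero library varies like the RiboMinus libraries, whose spread is technical. Its log2 difference was 5.37 for Hist4h4 and -4.52 for Acta2. The genes named above by the rule were picked by their gap in the same 5 libraries. Small p-values of these genes would follow from that choice and are not given. AC113316.1 did not pass an adjusted p of 0.05. Scarna8, U1 and U6atac have 0 tags and so no spread in RiboMinus, and passed the minimum only through Ribo-Zero. By an adjusted p under 0.05 limma called 1388 protein-coding genes higher (14.9%) and 1400 lower (15%), 42 long non-coding genes higher (10.3%) and 45 lower (11.1%), and 149 small-RNA genes higher (58%) and 6 lower (2.33%). These tests compare the libraries, and not the methods alone.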

How the data were processed

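The authors aligned tags with Bowtie (version not given in the sources used here) to mm9, removed ribosomal tags, and in RiboMinus libraries mitochondrial tags too, and kept tags with 1 place in the genome, allowing 2 mismatches in 36 nt and 3 in 51 nt. The deposited files list 1 tag per line with its position and are not normalised. No file holds counts, CPM or RPKM, and 0 columns of other samples were used. Splice junctions were not mapped, strand of the RNA is not known, and overlapping or antisense genes cannot be told apart.

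The midpoint of each tag outside chrM placed it in the merged exons, introns or small-RNA genes of GENCODE M1 (37273 genes) on the same build, with small-RNA genes first, then protein-coding, long non-coding and pseudogene exons and introns when classes were shared out. RPKM and CPM were computed from these counts. Genes needed a mean of 3 RPKM over Ribo-Zero and the mean of RiboMinus, small-RNA genes 2 CPM, and introns 0.5 RPKM and 1 kb. Differences are on the log2(RPKM + 1) scale (introns + 0.1), which understates changes of low genes. For a gene without a tag in RiboMinus, the fold is a bound that takes 3 tags over the pooled libraries. Named genes were the 10 protein-coding, 5 long non-coding, 6 small-RNA and 5 intron calls per direction with the largest gap to the nearest library, with exon overlap up to 20% for protein-coding and long non-coding genes, and 2 to 4 members of each list with the largest gaps each way, or all of a list of up to 8. Members and lists were chosen with earlier results of these data known. The range rule and limma were tested on simulated data, with outcomes that are not reported here. Alternatives were other fold limits, pseudocounts, filters, scales, locations, left-out libraries, counting of positions, tag ends, mappable lengths and limma 3.58.1 (R 4.3.3, Benjamini-Hochberg adjustment). Sheared, combined and lane samples were not used here. Python 3.11.15, numpy 2.4.6, scipy 1.17.1, pandas 2.3.3 and matplotlib 3.10.9 were used. Some list members and sequence windows are not reported here.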

Additional observations from a re-analysis of the deposited data

Results flagged for a closer look

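Of 48 sets of 4 RiboMinus values checked for a library far from the others, 3 stood out, and chance alone gives about 1 in 20. Hist4h4 had 95 RPKM in CCE1 Nijmegen against 32.4 to 35.3 RPKM in the other 3 libraries. The U4 gene had 0.404 CPM in CCE1 Vienna-IMP, which is 1 tag, and no tag in the others. The intron of Gm5506 had 0.942 RPKM in CCE1 Vienna-IMP, 3 tags, and no tag in the others.

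Mdm2, a target and inhibitor of p53, lay below the range in CCE by 0.33 on the log2 scale (gap of -0.33, Ribo-Zero 16.6 RPKM against 21.1 to 32.0 RPKM) and above it in FH by 0.35 (5.15 RPKM against 1.48 to 3.83 RPKM). The difference between the tissues was not tested.

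The Ribo-Zero library held 8.23% of its unique tags on chrM, outside every comparison, where the RiboMinus files hold none after removal by the authors.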

How the results depend on the processing

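No paired analysis was possible because there is 1 Ribo-Zero library, so that the groups share fewer than 2 replicate numbers. Counts are given as higher and lower in Ribo-Zero. Of 197 alternative values for counts, shares and medians, 144 kept their direction and stayed near the reported value, 52 moved and 1 turned its direction. Of 483 alternative values for the 42 named genes, 467 kept the call, 16 lost it and none turned, and 13 genes lost the call in at least 1 alternative. With RiboMinus libraries left out, or from a single location, the range can only narrow, so the gap of a called gene cannot shrink. A smaller pseudocount likewise cannot shrink the gap. Such alternatives could not take the call from a gene that passed the minimum, so the 467 do not measure how robust the calls are.

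With a limit of 2-fold, the counts were 910 and 801 protein-coding genes, 29 and 28 long non-coding genes, 7 lower small-RNA genes, and 216 and 112 introns. With 8-fold they were 11 and 11, 2 and 0, and for introns 3 and 1. A pseudocount of 0.1 gave 234 and 149 protein-coding and 12 and 6 long non-coding genes, and a pseudocount of 1 gave 2 and 3 introns. Without a filter 272 small-RNA genes were higher and 6 lower, and 22 introns were higher. With a filter 3 times as high 1 small-RNA gene was lower and 5 introns were higher. Scaling to tags in protein-coding exons gave 11 and 5 long non-coding genes and 23 higher introns. Against Vienna-IMP alone, 146 protein-coding genes were lower, and the counts were 10 and 7 long non-coding genes, 6 lower small-RNA genes, and 25 and 23 introns. Against Nijmegen alone, 15 long non-coding genes were higher, 7 small-RNA genes lower and 27 introns higher. Counting each position once kept 95 of 154 and 60 of 84 protein-coding and 125 of 170 higher small-RNA calls, and gave 2 and 11 long non-coding genes and 55 lower introns, and differences in share of 0.0657 percentage points for long non-coding exons, 0.461 for small-RNA genes and 0.513 between genes, where the sign turned. Without the windows of piled tags, picked by their RiboMinus share, the difference between genes was -0.0507. Among small-RNA genes with at least 90% single 36-mers 1 was lower. The tool limma called 1388 and 1400 protein-coding genes, 42 and 45 long non-coding genes, and 6 small-RNA genes lower. Leaving out 1 RiboMinus library at a time gave 7 to 11 higher long non-coding genes, 3 to 5 lower small-RNA genes, 13 to 20 higher and 11 to 17 lower introns. The other left-out counts stayed within 1.5 times. A smaller set of libraries has a narrower range, and a lower fold limit takes in more genes by construction. For the other changes the cause was not tested.

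RiboMinus depth limits the low genes: the smallest library has 1452794 tags, and a gene with no tag in the 7358308 pooled RiboMinus tags is known only to the floor of 3 tags.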
